A study of Mus musculus with 8 samples.

Results

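The 8 genes described here carry the insulin and insulin-like growth factor signal from the cell surface to the FoxO transcription factors: the receptors Insr and Igf1r, the receptor substrates Irs1 and Irs2, the phosphoinositide 3-kinase (PI3K) subunit Pik3r1, the kinase Akt1, and the transcription factors Foxo1 and Foxo3. They were chosen by gene name for their place in the pathway, and all 8 were found among the 13996 genes with expression values. RNA was sequenced from brain cortexes of male C57BL/6 mice, 4 on a normal diet (Normal) and 4 on a high fat diet (HFD) with 60% fat by weight. Feeding began at 8 weeks of age and lasted 8 weeks, so all mice were 16 weeks old at sampling. Each mouse gave 1 library. Whether the RNA levels of this pathway differed between the diets is the question asked here, because the study examined insulin resistance of the cortex through phosphorylated proteins, which RNA levels do not measure.

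Insulin and the insulin-like growth factors bind receptor tyrosine kinases, which phosphorylate docking proteins of the Irs family. These recruit PI3K, made of a regulatory and a catalytic subunit, whose lipid product brings the kinase Akt to the membrane. Active Akt phosphorylates many proteins, among them the FoxO factors, which are then held in the cytoplasm by 14-3-3 proteins and no longer switch on their target genes. In the brain the pathway is known for roles in neuronal survival, growth, synaptic plasticity and the control of feeding.

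Values are FPKM (fragments scaled by transcript length and by the mapped fragments of the library), so levels of different genes can be compared per length. They were rounded to 0.1 by the authors. Differences are given as log2 fold changes of HFD over Normal on the log2(FPKM + 0.1) scale, with the standard error (SE), and a gene was called changed when its adjusted p in limma was below 0.05. Of the 13982 genes tested, 4626 were called, which is 33.1%. Those higher in HFD mice made up 17.7% and those lower 15.3%. A call with the mean of 1 diet over 1.5 times that of the other, on the fitted scale and in either direction, was made for 7.13%, and for 31.9% the FPKM values of the diets did not overlap.

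Before the members are described, the markers of cell types and regions show how the cortex samples differed. Cortical projection neuron markers were present in every mouse, with a summed FPKM of 292 to 442 in Normal mice and 487 to 577 in HFD mice, and 7 of 9 rose. The striatum markers summed to 249 to 456 in Normal mice and 84.7 to 95.7 in HFD mice, and 11 of 11 fell. The oligodendrocyte markers summed to 2269 to 3720 and 1563 to 2159, and 12 of 12 fell. The cerebellum markers summed to 50.6 to 287 and 34.3 to 39.5, with 5 of 7 lower, and the thalamus markers to 62.1 to 190 and 43.7 to 46.7, with 3 of 9 lower. Normal mice 2 and 3 had the highest sums of both these lists. Of the choroid plexus markers 3 of 9 fell, with sums of 350 to 739 and 24.2 to 958, the latter in HFD mouse 4 against at most 80.7 in the other HFD mice. Blood markers fell in 5 of 5 cases, with sums of 239 to 480 and 199 to 247. Other lists moved in both directions. These were the markers of oligodendrocyte precursors (2 higher and 3 lower of 8, sums 85.5 to 102 and 76.4 to 89.6), astrocytes (2 higher and 3 lower of 9, sums 1272 to 1467 and 1246 to 1322), endothelium (1 higher and 3 lower of 9, sums 111 to 124 and 105 to 117) and interneurons (2 higher and 4 lower of 8, sums 560 to 585 and 482 to 555, without overlap). Of the microglia markers limma called 0 of 9, with 1 at an unadjusted p below 0.05, and sums of 174 to 212 and 185 to 196. The unadjusted p was below 0.05 for 6199 of all 13982 genes. Outside cell types, 9 of 10 clock genes that peak with the Per genes rose, with sums of 173 to 202 and 272 to 288, 5 of 12 immediate early genes fell, with sums of 231 to 352 and 172 to 261, and among 12 glucocorticoid-responsive genes 2 rose and 1 fell, with sums of 525 to 646 and 517 to 601.

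Both receptors rose in HFD mice, Igf1r by 1.55-fold and Insr by 1.15-fold, and none of the other 6 members was called. The 2 of 8 members called stand beside the 33.1% of all genes. The diets did not overlap for 3 of 8 members, Insr, Igf1r and Akt1, beside the 31.9% of all genes. The fitted log2 difference was positive for 7 of 8 members, all but Foxo1. Its median was 0.14 over the members and 0.0031 over all genes. Over the 2793 genes with the longest transcripts, which include all members but Akt1, the median was 0.07. After the length and GC correction described below, Irs1, Irs2, Akt1 and Foxo3 were at 0.017, 0.033, 0.010 and 0.013. Insr, Igf1r and Pik3r1 were then at 0.13, 0.49 and 0.10, and Foxo1 at -0.28. Whether transcript length accounts for the positive signs was not tested. In these bulk samples, fewer cells of a type and less RNA per cell cannot be told apart. In Normal mice the mean levels ran from 57.3 FPKM for Akt1 down to 2.18 FPKM for Foxo1. Over all mice Akt1 (mean 59.3 FPKM) was followed by Pik3r1 (40.1), Foxo3 (25.1), Irs2 (13.1), Igf1r (9.38), Insr (8.84), Irs1 (6.03) and Foxo1 (2.04), and Akt1 stood 29.1-fold above Foxo1. Of the neighbours in this order, Irs2 and Igf1r, and Igf1r and Insr, had ranges over the mice that overlapped, although Irs2 was above Igf1r in every single mouse.

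**Figure D1:**
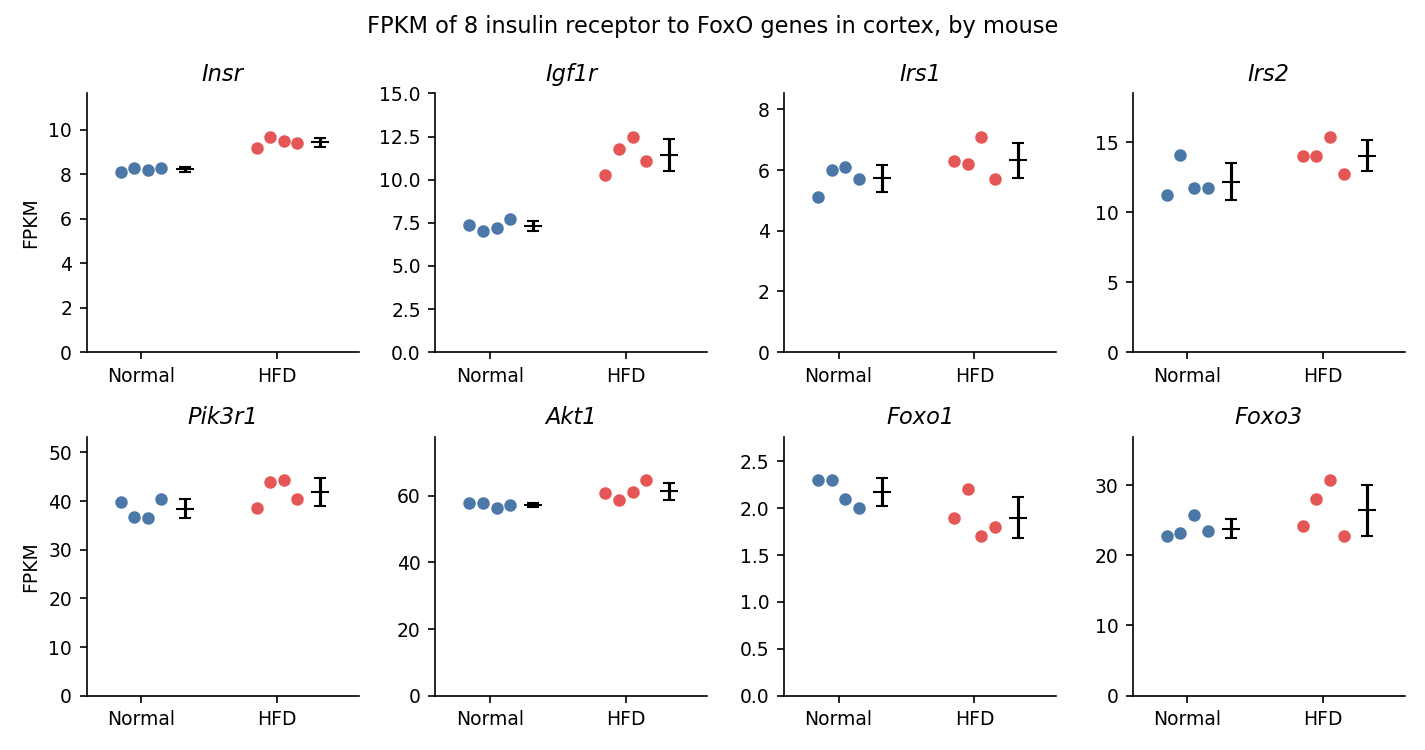
FPKM of the 8 members in every mouse, with 1 panel per gene, Normal and HFD mice side by side, points for the mice and bars for the mean and SD of 4 mice. Insr and Igf1r in HFD mice lie above every Normal mouse, at 9.2 to 9.7 and 10.3 to 12.5 FPKM, while Irs1, Irs2, Pik3r1, Foxo1 and Foxo3 overlap between the diets.

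Insr encodes the insulin receptor, a receptor tyrosine kinase. Its gene lies on the minus strand at chr8:3122061-3279617 (GRCm38, GENCODE M21), with 21 exons in its longest transcript. Normal mice had 8.1, 8.3, 8.2 and 8.3 FPKM, and the HFD mice 9.2, 9.7, 9.5 and 9.4 FPKM. All 4 HFD mice were above all 4 Normal mice, and the spread within each diet was narrow. Mean FPKM rose from 8.23 ± 0.0957 to 9.45 ± 0.208 (SD, n = 4 each), a log2 fold change of 0.20 (SE 0.05, 95% interval 0.09 to 0.31, limma adjusted p = 0.0128). A difference of at least this size in either direction was found for 44.6% of all genes.

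Igf1r encodes the receptor for insulin-like growth factor 1, which shares its architecture with the insulin receptor and can pair with it in hybrid receptors. The gene is on the plus strand at chr7:67952827-68233668 and its longest transcript also has 21 exons. The Normal mice had 7.4, 7.0, 7.2 and 7.7 FPKM, and the HFD mice 10.3, 11.8, 12.5 and 11.1 FPKM. The lowest HFD mouse was above the highest Normal mouse by more than the whole range within either diet. Mean FPKM rose from 7.33 ± 0.299 to 11.4 ± 0.943 (SD, n = 4 each), a log2 fold change of 0.63 (SE 0.07, 95% interval 0.48 to 0.79, limma adjusted p = 0.000695). Only 7.13% of all genes differed by at least this much.

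Igf1r and Insr changed places in the order of levels. Relative to Insr, Igf1r FPKM stood at 0.914, 0.843, 0.878 and 0.928 in Normal mice and at 1.12, 1.22, 1.32 and 1.18 in the HFD mice. Igf1r was thus below Insr in every Normal mouse and above it in every HFD mouse, and the mean ratio was 1.36 times as high on the high fat diet. The third receptor of the pathway list, Igf2r, which carries insulin-like growth factor 2 to lysosomes and has no kinase, had 11.1 ± 0.681 FPKM in Normal mice and 11.1 ± 0.655 in HFD mice (log2 0.0098, SE 0.06, limma adjusted p = 0.920).

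The calls of both receptors held with each mouse left out in turn, with log2 fold changes of 0.19 to 0.21 for Insr and 0.59 to 0.68 for Igf1r. They did not hold in every fit that took a marker level per mouse as a covariate, levels that also differed between the diets. With the cerebellum markers the log2 fold change of Igf1r was 0.58 (SE 0.13, limma adjusted p = 0.0493) and that of Insr 0.22 (SE 0.09, adjusted p = 0.185), and with the oligodendrocyte markers they were 0.64 (SE 0.16, adjusted p = 0.229) and 0.19 (SE 0.11, adjusted p = 0.484). With the cortical projection neuron markers, tried after the data were seen, they were 0.49 (SE 0.12, adjusted p = 0.0649) and 0.19 (SE 0.09, adjusted p = 0.252). In these fits the SE of both differences was larger, and the difference of Igf1r was smallest with the cortical projection neuron markers. No fit took the striatum markers, of which 11 of 11 fell, as a covariate.

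Both receptor transcripts are long, at 9355 and 11409 nt, longer than 96.8% and 98.6% of all genes' longest transcripts. In these libraries the difference between the diets moved with length: the median log2 fold change was -0.04 in the fifth of genes with the shortest transcripts and 0.07 in the fifth with the longest, and the share called higher in HFD mice was 9.8% and 28%. After a correction of each mouse for transcript length and GC content, which was chosen after the data were seen, the log2 fold change of Igf1r was 0.49 (SE 0.06, limma adjusted p = 0.00103) and that of Insr 0.13 (SE 0.04, adjusted p = 0.0568). Igf1r was still called and Insr was not.

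**Figure D2:**
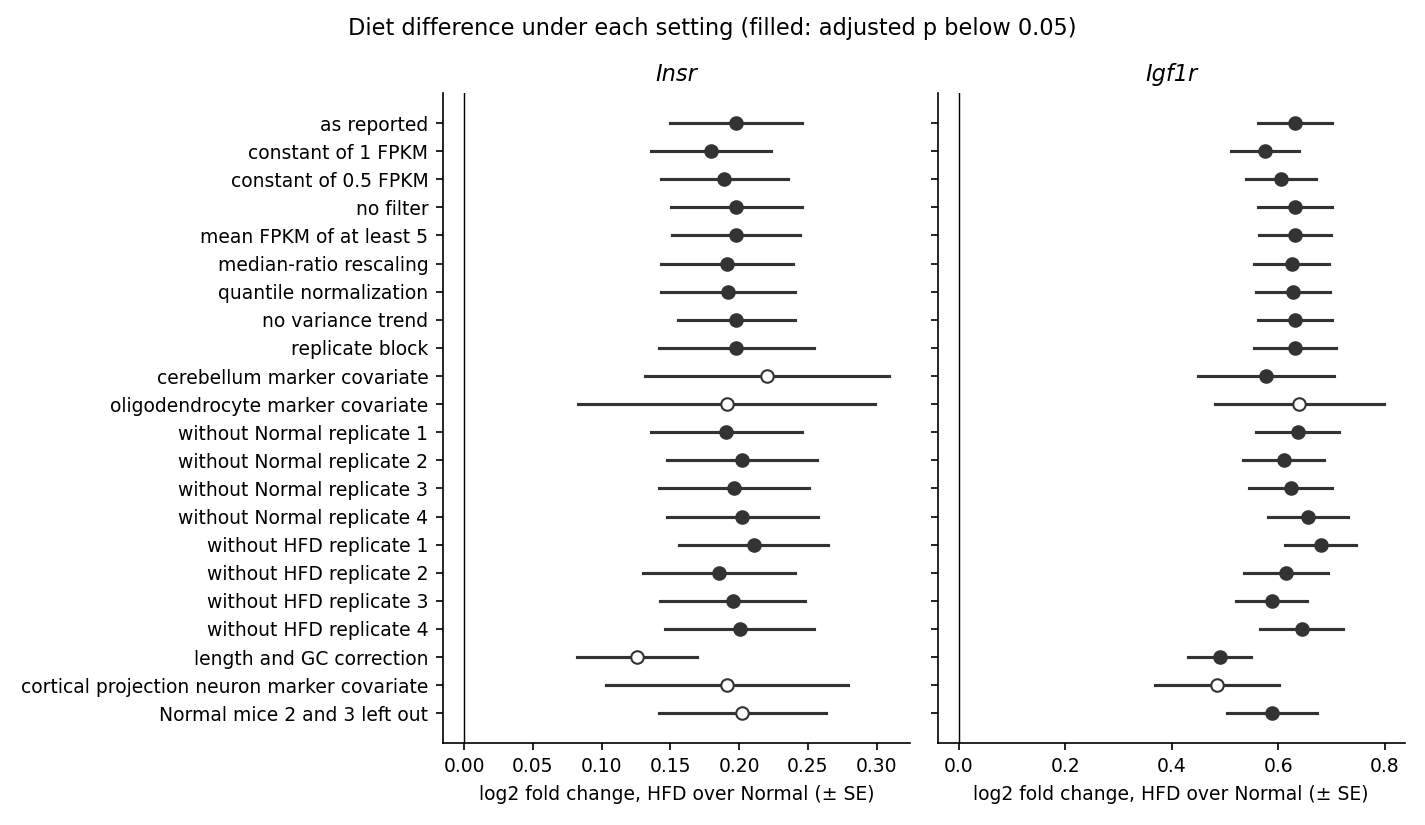
Log2 fold change of Insr and of Igf1r, HFD over Normal, under each way of processing the FPKM values, with bars for the SE and filled points where limma called the gene. Igf1r lies between 0.49 and 0.68 and Insr between 0.13 and 0.22, with the longest bars in the fits with a marker covariate.

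Bases before the RefSeq start of Igf1r (GRCm38.p6, chr7:67952007-67952256, plus strand) are shown since this gene had the largest difference of the members. Capitals in this and the following promoter sequences mark 4 motifs on both strands: the GC box core GGGCGG, the E-box CACGTG, the FoxO element core GTAAACA and its shorter form AAACA, which is contained in it. All runs are written 5′ to 3′ on the strand of the gene and end at the base before the start.
Igf1r: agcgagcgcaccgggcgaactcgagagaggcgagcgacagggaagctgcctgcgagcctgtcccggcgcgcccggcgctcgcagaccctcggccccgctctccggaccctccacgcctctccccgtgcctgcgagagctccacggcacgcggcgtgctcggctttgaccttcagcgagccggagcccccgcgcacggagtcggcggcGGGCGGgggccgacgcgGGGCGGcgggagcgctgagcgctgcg
The sequence holds GGGCGG 43 and 26 bases before the start and none of the other 3 motifs, and 77.6% of it is G or C. Among 12340 promoters of genes with expression values, taken from 250 bases before to 50 after the start, GGGCGG or its reverse complement occurred in 62.7%, CACGTG in 9.75%, GTAAACA in 2.39% and AAACA in 36.8%. Among all 32851 mouse promoters of the RefSeq set, the shares were 35.7%, 7.15%, 3.65% and 50.5%.

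The receptor substrates Irs1 and Irs2, docking proteins that link the receptors to PI3K, were not called. Irs1 is on the minus strand at chr1:82233101-82291416 with 2 exons. It had 5.1, 6.0, 6.1 and 5.7 FPKM in the Normal mice and 6.3, 6.2, 7.1 and 5.7 FPKM in the HFD mice. HFD mouse 4 lay within the Normal range and the other HFD mice above it. The means were 5.73 ± 0.450 and 6.33 ± 0.580 (SD, n = 4 each), a log2 difference of 0.14 (SE 0.09, 95% interval -0.05 to 0.33, limma adjusted p = 0.233).

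Irs2, on the minus strand at chr8:10984681-11008458 with 2 exons, had 11.2, 14.1, 11.7 and 11.7 FPKM in the Normal mice and 14.0, 14.0, 15.4 and 12.7 FPKM in the HFD mice. Normal mouse 2 stood with the HFD mice, and the other Normal mice were below all HFD mice. The means were 12.2 ± 1.30 and 14.0 ± 1.10 (SD, n = 4 each), a log2 difference of 0.21 (SE 0.08, 95% interval 0.02 to 0.39, limma adjusted p = 0.0873). The fitted difference was close to that of Insr, with a larger SE. Over the 8 fits that each left out 1 mouse, the difference of Irs2 was 0.16 to 0.28 and was called in 1 of 8, the fit without Normal mouse 2 (0.28, limma adjusted p = 0.0242). After the length and GC correction it was 0.033 (SE 0.08, adjusted p = 0.774). The ratio of Irs2 to Irs1 was 2.20, 2.35, 1.92 and 2.05 in the Normal mice and 2.22, 2.26, 2.17 and 2.23 in the HFD mice, so the ranges overlapped and Irs2 was the higher substrate RNA in every mouse.

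An annotated gene on the opposite strand shares exon sequence with each substrate, 2822 of 9144 bp for Irs1 (Gm9747) and 162 of 6323 bp for Irs2 (9530052E02Rik). The libraries were made with a stranded kit, but the sources used here do not say whether strand was used in calculating the FPKM. If it was not, reads of these genes count towards Irs1 and Irs2.

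The promoters of Irs1 (chr1:82291440-82291689, minus strand) and Irs2 (chr8:11008930-11009179, minus strand) are shown because both hold an E-box beside a FoxO short core.
Irs1: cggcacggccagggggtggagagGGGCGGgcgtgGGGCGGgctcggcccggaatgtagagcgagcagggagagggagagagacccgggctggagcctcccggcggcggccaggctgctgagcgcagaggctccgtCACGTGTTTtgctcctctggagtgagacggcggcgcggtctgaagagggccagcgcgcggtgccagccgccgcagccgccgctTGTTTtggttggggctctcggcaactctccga
Irs2: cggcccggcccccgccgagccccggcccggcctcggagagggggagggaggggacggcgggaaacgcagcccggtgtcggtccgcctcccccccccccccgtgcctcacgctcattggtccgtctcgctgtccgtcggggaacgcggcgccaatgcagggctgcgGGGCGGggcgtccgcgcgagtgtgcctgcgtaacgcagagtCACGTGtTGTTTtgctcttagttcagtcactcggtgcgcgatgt
In Irs1 the E-box CACGTG begins 115 bases before the start and shares 2 bases with the TGTTT that follows, TGTTT being the reverse complement of AAACA. In Irs2 the E-box begins 44 bases before the start, with 1 base between it and the TGTTT. Among the 12340 promoters of genes with expression values, 25 (0.203%) hold the E-box with TGTTT in such a position, from 2 shared bases to 1 base between, on either strand. The arrangement was looked for after it was seen in these sequences, and it is a description of letters and not of binding. Irs1 also has a TGTTT 32 bases before the start and GGGCGG 227 and 216 bases before it, and Irs2 has GGGCGG 85 bases before it.

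Pik3r1 encodes the regulatory subunit p85-alpha of PI3K, which binds phosphorylated Irs proteins and holds the catalytic subunit. Its gene is on the minus strand at chr13:101680563-101768217 and its longest transcript has 16 exons. The Normal mice had 39.9, 36.8, 36.6 and 40.5 FPKM, and the HFD mice 38.5, 44.0, 44.3 and 40.5 FPKM. The diets overlapped, with HFD mice 2 and 3 the highest and Normal mice 2 and 3 the lowest. The means were 38.5 ± 2.04 and 41.8 ± 2.81 (SD, n = 4 each), a log2 difference of 0.12 (SE 0.06, 95% interval -0.01 to 0.25, limma adjusted p = 0.149).

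Other PI3K subunits changed in both directions. Of 9 tested, Pik3r1 included, 2 rose and 2 fell. That is 44.4% called, beside 33.1% of all genes, 17.7% higher and 15.3% lower. Pik3r2, the p85-beta regulatory subunit, rose from 38.1 ± 4.86 to 49.0 ± 4.49 FPKM (log2 0.37, SE 0.10, limma adjusted p = 0.0180), and Pik3cd, the p110-delta catalytic subunit known from immune cells, rose from 5.33 ± 0.171 to 7.18 ± 0.350 FPKM (log2 0.42, SE 0.06, adjusted p = 0.00149). Pik3ca, the p110-alpha catalytic subunit used by the insulin receptor, fell from 20.7 ± 0.961 to 18.5 ± 0.613 FPKM (log2 -0.16, SE 0.05, adjusted p = 0.0344), as did Pik3c2a, a class II enzyme, from 11.5 ± 0.754 to 9.75 ± 0.742 (log2 -0.24, SE 0.07, adjusted p = 0.0302). Pik3cb (4.90 and 5.03 FPKM, adjusted p = 0.697) and Pik3r3 (16.8 and 13.7 FPKM, adjusted p = 0.255) were not called.

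Ratios of PI3K subunits were also taken within each mouse. The ratio of Pik3r1 to Pik3ca was 2.00, 1.68, 1.75 and 2.05 in the Normal mice and 2.18, 2.30, 2.36 and 2.21 in the HFD mice, without overlap. The ratio of Pik3r2 to Pik3r1 was 1.05, 0.946, 0.904 and 1.06 in the Normal mice and 1.32, 1.10, 1.21 and 1.06 in the HFD mice, and the lowest HFD mouse was barely above the highest Normal mouse.

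Akt1, a serine/threonine kinase activated at the membrane by the PI3K product, had the highest RNA level of the members. Its gene is on the minus strand at chr12:112653821-112674884 with 14 exons in the longest transcript. The Normal mice had 57.7, 57.7, 56.4 and 57.2 FPKM, and the HFD mice 60.7, 58.7, 61.2 and 64.7 FPKM. Every HFD mouse was above every Normal mouse, with HFD mouse 2 the closest to them. The means were 57.3 ± 0.614 and 61.3 ± 2.50 (SD, n = 4 each), a difference of 7.12% in the mean and of 0.10 in log2 (SE 0.04, 95% interval 0.01 to 0.19), which did not pass after adjustment (limma adjusted p = 0.0945). After the correction for length and GC content it was 0.01 (SE 0.05, adjusted p = 0.901).

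Akt2, the isoform known for glucose uptake in muscle and fat, fell, with 46.7, 40.3, 41.6 and 39.7 FPKM in the Normal mice and 32.5, 30.5, 35.6 and 31.3 FPKM in the HFD mice. The diets did not overlap, and the log2 fold change was -0.37 (SE 0.07, limma adjusted p = 0.00353). Akt1 was above Akt2 in every mouse. The ratio of Akt1 to Akt2 was 1.24, 1.43, 1.36 and 1.44 in the Normal mice and 1.87, 1.92, 1.72 and 2.07 in the HFD mice, 1.39 times as high on average and without overlap. This lack of overlap follows from that of Akt1 and of Akt2, which separated the diets in opposite directions. Pdpk1, which activates Akt, had 36.4 and 34.4 FPKM (adjusted p = 0.211). The fall of Akt2 was not called with the oligodendrocyte markers as a covariate (log2 -0.18, SE 0.14, adjusted p = 0.596) or with the cortical projection neuron markers (-0.46, SE 0.12, adjusted p = 0.0771), and it was called with the cerebellum markers (-0.52, SE 0.11, adjusted p = 0.0405).

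**Figure D3:**
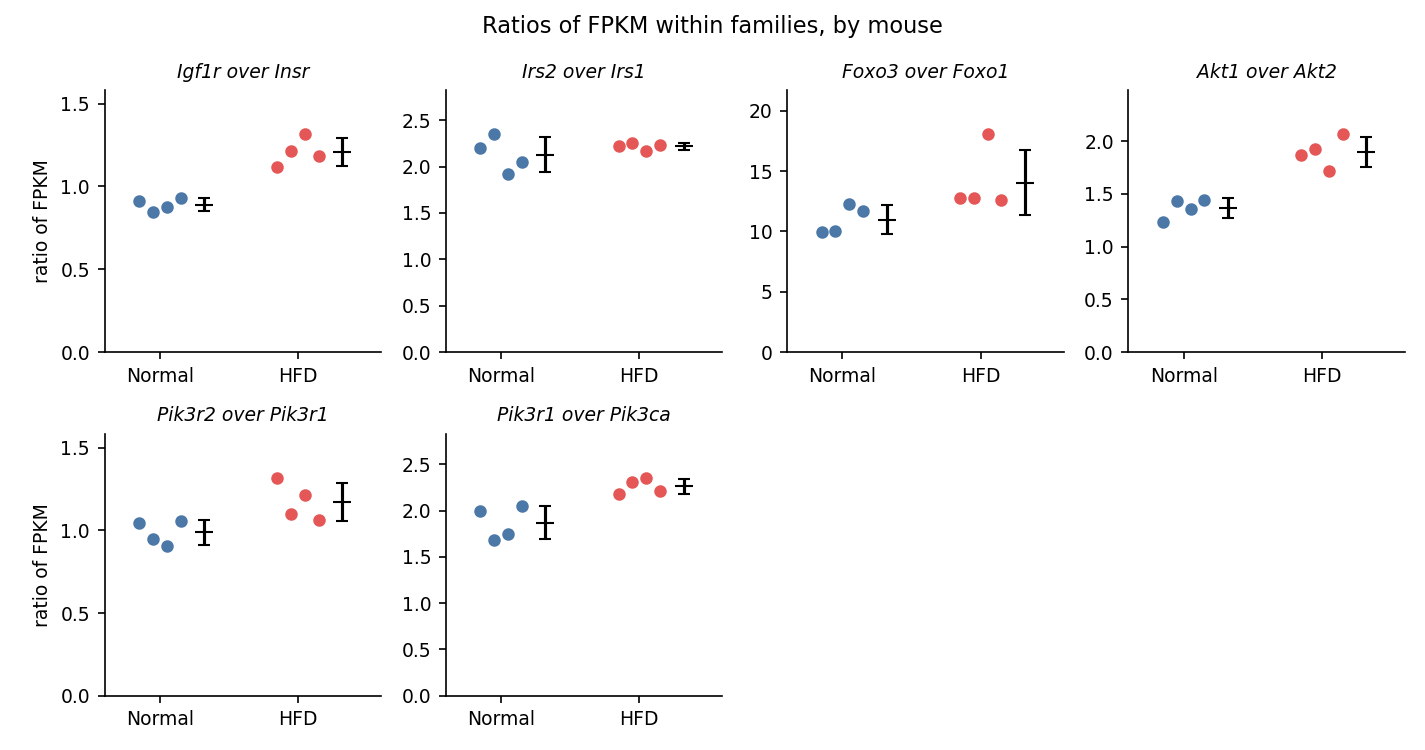
Ratio of FPKM within each mouse for 6 pairs of related genes, with points for the mice and bars for the mean and SD of 4 mice per diet. Irs2 over Irs1 (1.92 to 2.35 against 2.17 to 2.26) overlaps between the diets. Igf1r over Insr (0.843 to 0.928 against 1.12 to 1.32) and Akt1 over Akt2 (1.24 to 1.44 against 1.72 to 2.07) do not overlap. Nor do Foxo3 over Foxo1, Pik3r1 over Pik3ca and, barely, Pik3r2 over Pik3r1. For Akt1 over Akt2 this follows from the separate levels of both genes.

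The first promoter of Akt1 in the RefSeq set (chr12:112674885-112675134, minus strand) is shown because, of the member promoters in that set, it alone holds the full FoxO element core before the start, in the form TGTTTAC.
Akt1: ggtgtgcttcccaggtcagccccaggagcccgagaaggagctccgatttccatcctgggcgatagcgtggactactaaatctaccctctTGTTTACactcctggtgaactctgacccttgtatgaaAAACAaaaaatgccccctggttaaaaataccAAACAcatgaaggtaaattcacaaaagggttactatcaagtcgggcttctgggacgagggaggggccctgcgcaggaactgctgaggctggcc
The element begins 161 bases before the start and contains the short core TGTTT. The other orientation of the short core, AAACA, occurs 124 and 93 bases before the start, and the GC box core and the E-box do not occur in this run. The G and C share was 52.0%, below that of the Igf1r, Irs1 and Irs2 runs (77.6%, 72.4% and 72.8%). A second Akt1 promoter of the set (chr12:112674277-112674526, minus strand), not printed, differed from this one. Its bases before the start were 78.4% G or C. They held GGGCGG 111, 36, 17 and 13 bases before the start, and no E-box or FoxO core, full or short.

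Foxo1 and Foxo3 encode transcription factors that switch on genes of stress resistance, cell cycle arrest and gluconeogenesis when Akt is inactive. Foxo1, on the plus strand at chr3:52268336-52353221 with 3 exons, had 2.3, 2.3, 2.1 and 2.0 FPKM in the Normal mice and 1.9, 2.2, 1.7 and 1.8 FPKM in the HFD mice. HFD mouse 2 overlapped the Normal mice and the other HFD mice were below them. The means were 2.18 ± 0.150 and 1.90 ± 0.216 (SD, n = 4 each), a log2 difference of -0.19 (SE 0.11, 95% interval -0.45 to 0.07, limma adjusted p = 0.225). The rounding step of 0.1 FPKM is close to these SDs, and 674 of 8665 bp of its exons overlap the antisense gene Gm20402.

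Foxo3, on the minus strand at chr10:42181841-42276755 with 4 exons in its longest transcript, had 22.8, 23.1, 25.8 and 23.4 FPKM in the Normal mice and 24.2, 28, 30.7 and 22.7 FPKM in the HFD mice. HFD mouse 4 was the lowest of all mice and HFD mouse 3 the highest. The means were 23.8 ± 1.37 and 26.4 ± 3.63 (SD, n = 4 each), a log2 difference of 0.14 (SE 0.09, 95% interval -0.06 to 0.35, limma adjusted p = 0.256). Foxo3 was the more abundant factor in every mouse, with a ratio to Foxo1 of 9.91, 10.04, 12.3 and 11.7 in the Normal mice and 12.7, 12.7, 18.1 and 12.6 in the HFD mice. The diets did not overlap in this ratio, although they did in the level of each gene.

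Foxo4 (4.90 ± 0.408 and 4.28 ± 0.377 FPKM, log2 -0.19, limma adjusted p = 0.124) and the brain-enriched Foxo6 (3.05 ± 0.451 and 3.83 ± 0.772 FPKM, log2 0.31, adjusted p = 0.145) were not called either. Limma thus called 0 of the 4 FoxO genes, beside 33.1% of all genes. An unadjusted p below 0.05 was found for 0 of them, beside 6199 of all 13982 genes. Of the members, Foxo1 reached an unadjusted limma p below 0.05 after the length and GC correction, and Foxo3 did so without HFD mouse 4. None of the 4 was called in any of the other fits.

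**Figure D4:**
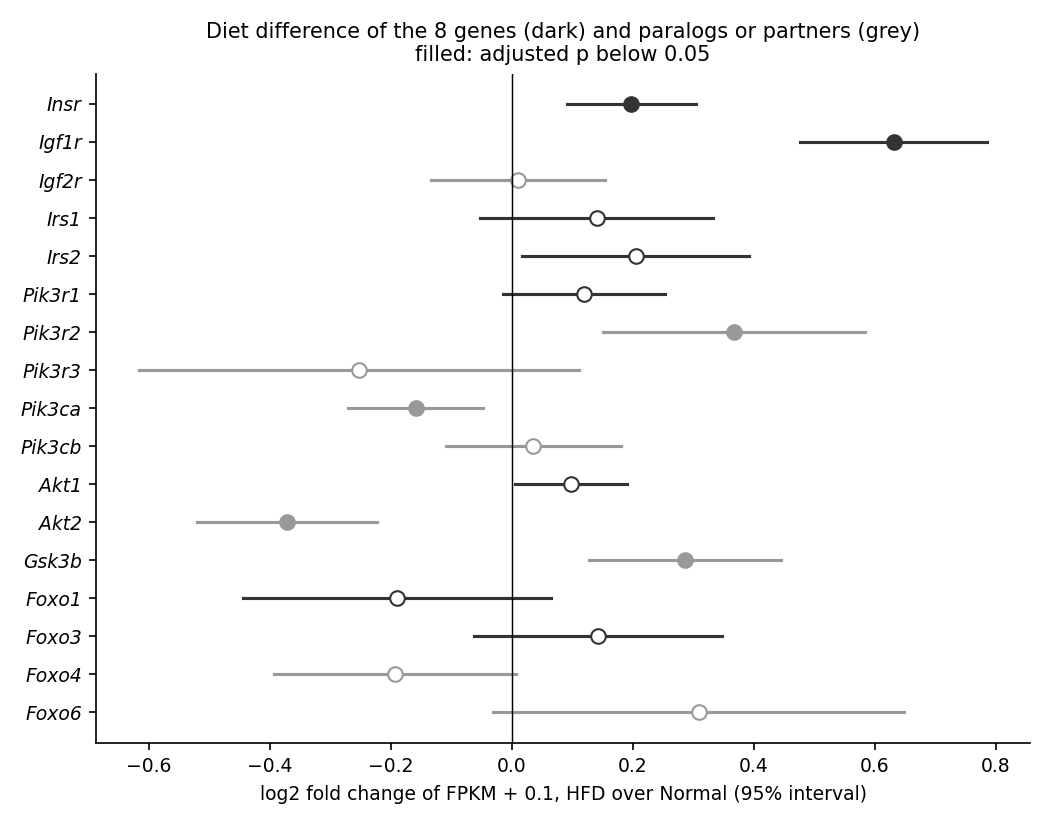
Log2 fold change of the 8 members and of their paralogs and partners, HFD over Normal, members dark and the others grey, with bars for the 95% interval and filled points where the limma adjusted p was below 0.05. Igf1r at 0.63 and Akt2 at -0.37 lie farthest from 0 on either side among the kinases and receptors, and Igf2r lies at 0.0098.

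The wider pathway was described with a list of 129 genes, of which 114 were tested. Without the 8 members, 46 of 106 genes (43.4%) were called, 25 higher and 21 lower, beside 33.1% of all genes called, 17.7% higher and 15.3% lower, and the counts by role below stand beside the same shares. The median log2 fold change of the 106 was -0.02 and that of all genes 0.0031. A called difference of over 1.5 times was found for 3 of them, Crebbp (higher) and Igf2 and Tbc1d4 (lower). Genes for insulin itself, Ins1 and Ins2, were not among the expression values used here.

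Of the ligands and IGF binding proteins, 1 of 8 rose and 3 fell. Igf2, a growth factor ligand of both receptors, fell from 12.3 ± 1.96 to 7.45 ± 0.854 FPKM (log2 -0.71, SE 0.13, limma adjusted p = 0.00367). Igfbp5, which binds the growth factors outside the cell, rose from 20.2 ± 0.404 to 29.1 ± 2.06 FPKM (log2 0.53, SE 0.06, adjusted p = 0.000608). Igfbp2 fell from 37.0 ± 3.51 to 26.1 ± 8.44 FPKM (log2 -0.55, SE 0.19, adjusted p = 0.0483), with HFD mouse 4 at 37.7 FPKM among the Normal mice. That mouse also had the highest choroid plexus marker sum, and without it the log2 fold change of Igfbp2 was -0.75 (SE 0.13, adjusted p = 0.00502). No fit took the choroid plexus markers as a covariate, and whether they bear on Igfbp2 was not tested. The call was made in 2 of the 8 fits with a mouse left out, with values from -0.75 to -0.39, and not in the fit without the variance trend (adjusted p = 0.0712) or with the replicate block (0.0819).

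Among 14 adaptors, 5 rose and 1 fell. Sh2b2, which binds the activated receptor, rose from 1.88 ± 0.263 to 2.55 ± 0.311 FPKM (log2 0.43, SE 0.14, limma adjusted p = 0.0366). Dok5 rose from 8.10 ± 1.16 to 10.6 ± 1.18 FPKM (log2 0.38, SE 0.11, adjusted p = 0.0277) and its relative Dok4 fell from 7.78 ± 0.250 to 6.40 ± 0.432 (log2 -0.28, SE 0.06, adjusted p = 0.0104). The call of Dok5 was made in 4 of the 8 fits with a mouse left out, and its log2 difference was 0.016 (SE 0.15, adjusted p = 0.963) with the cerebellum covariate and 0.018 (SE 0.22, adjusted p = 0.979) with the oligodendrocyte covariate.

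Of 10 inhibitors of the receptors, 3 (30%) were called, all of them higher, beside 33.1% of all genes. Ptpn1, the phosphatase PTP1B that removes phosphate from the insulin receptor, rose from 9.95 ± 0.370 to 11.1 ± 0.263 FPKM (log2 0.16, SE 0.05, limma adjusted p = 0.0350). That call was made in 1 of the 8 fits with a mouse left out and not with the replicate block (adjusted p = 0.0954), and with the cerebellum covariate the difference was 0.077 (SE 0.09, adjusted p = 0.647). Socs7 rose from 21.3 ± 1.03 to 25.4 ± 0.613 FPKM (log2 0.26, SE 0.05, adjusted p = 0.00419). Ptprf, the receptor phosphatase LAR, rose from 11.4 ± 0.427 to 13.1 ± 0.183 FPKM (log2 0.20, SE 0.05, adjusted p = 0.0126), a difference that turned to -0.03 after the length and GC correction. Enpp1, named after its values were seen, had 1.65 and 1.13 FPKM and was not called (log2 -0.48, SE 0.19, adjusted p = 0.0778).

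Among 14 lipid and Akt phosphatases and related inhibitors, 4 rose and 3 fell. Phlpp2, which dephosphorylates Akt, rose from 5.38 ± 0.519 to 7.35 ± 0.520 FPKM (log2 0.45, SE 0.08, limma adjusted p = 0.00432). Inppl1, the lipid phosphatase SHIP2, fell from 8.18 ± 0.330 to 6.75 ± 0.858 (log2 -0.28, SE 0.09, adjusted p = 0.0381), and Trib2, a pseudokinase, fell from 17.9 ± 2.06 to 14.6 ± 0.556 (log2 -0.28, SE 0.08, adjusted p = 0.0214). The call of Inppl1 was made in 2 of the 8 fits with a mouse left out, and with the oligodendrocyte covariate its difference was -0.0078 (SE 0.18, adjusted p = 0.990).

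Of 7 Akt substrates, 3 rose and 2 fell. The RabGAPs Tbc1d4 and Tbc1d1, which restrain glucose transporter traffic until Akt acts on them, moved in opposite directions: Tbc1d4 fell from 3.78 ± 1.37 to 2.08 ± 0.05 FPKM (log2 -0.76, SE 0.22, limma adjusted p = 0.0267) and Tbc1d1 rose from 6.03 ± 0.250 to 7.73 ± 0.206 (log2 0.35, SE 0.06, adjusted p = 0.00240). Tbc1d4 was at 4.7 and 5.2 FPKM in Normal mice 2 and 3, the mice with the highest cerebellum and thalamus marker sums, and at 2.5 and 2.7 in the other Normal mice, and with the cerebellum covariate its difference was 0.15. Gsk3b, a kinase inhibited by Akt, rose from 36.9 ± 2.90 to 45.0 ± 3.39 FPKM (log2 0.29, SE 0.07, adjusted p = 0.0139). Its difference was 0.12 (SE 0.11, adjusted p = 0.576) with the cerebellum covariate, 0.17 (SE 0.16, adjusted p = 0.671) with the oligodendrocyte covariate and 0.029 (SE 0.08, adjusted p = 0.879) with the cortical projection neuron covariate.

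**Figure D5:**
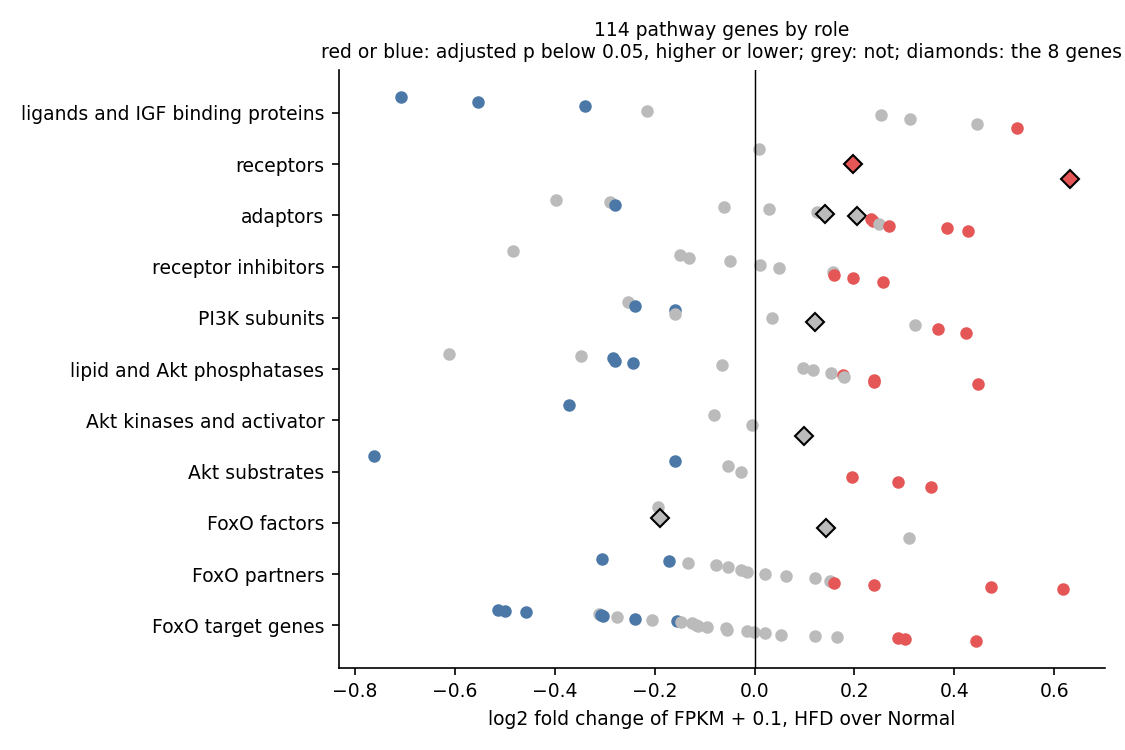
Log2 fold change of the 114 tested pathway genes by role, HFD over Normal, with 1 point per gene, red or blue where the limma adjusted p was below 0.05 and the gene was higher or lower, grey where not, and diamonds for the 8 members. In every role but the receptors genes lie on both sides of 0, and of the 26 FoxO target genes 3 rose and 7 fell.

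Partners of the FoxO factors changed in 6 of 15 cases, 4 higher and 2 lower. The acetyltransferases Crebbp and Ep300, coactivators that acetylate FoxO proteins, rose from 13.1 ± 0.943 to 20.1 ± 1.39 FPKM (log2 0.62, SE 0.07, limma adjusted p = 0.000729) and from 6.90 ± 0.337 to 9.63 ± 0.562 FPKM (log2 0.47, SE 0.06, adjusted p = 0.00119). Ywhaq, a 14-3-3 protein, fell from 115 ± 6.41 to 93.1 ± 3.30 FPKM (log2 -0.31, SE 0.05, adjusted p = 0.00272).

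Of 26 FoxO target genes, 10 (38.5%) were called, 3 higher and 7 lower, beside 33.1% of all genes, 17.7% higher and 15.3% lower. Their median log2 fold change was -0.11. Cdkn1b, the cell cycle inhibitor p27, fell from 17.2 ± 2.25 to 12.1 ± 0.569 FPKM (log2 -0.50, SE 0.09, limma adjusted p = 0.00396), Cdkn1a, the inhibitor p21, from 6.53 ± 0.574 to 4.8 ± 1.12 (log2 -0.46, SE 0.14, adjusted p = 0.0350), and the stress gene Gadd45a from 6.43 ± 0.618 to 4.58 ± 1.21 (log2 -0.51, SE 0.17, adjusted p = 0.0434). With the oligodendrocyte markers, which also fell, as a covariate the log2 differences were -0.36 (SE 0.21, adjusted p = 0.484) for Cdkn1b, -0.19 (SE 0.32, adjusted p = 0.841) for Cdkn1a and -0.50 (SE 0.40, adjusted p = 0.621) for Gadd45a. With the cerebellum covariate they were -0.13 (SE 0.09, adjusted p = 0.420), -0.45 (SE 0.27, adjusted p = 0.358) and -0.49 (SE 0.32, adjusted p = 0.405), and Cdkn1b was highest in Normal mice 2 and 3, at 19 and 18.7 FPKM.

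Of the 26 called genes named beside the members, 14 were called with each mouse left out in turn, among them Igf2, Igfbp5, Pik3cd, Akt2, Tbc1d1, Crebbp and Ep300. The calls of Pik3r2 and Trib2 were made in 7 and 6 of the 8 fits, those of Dok5 and Pik3c2a in 4, those of Sh2b2 and Gadd45a in 3, those of Igfbp2, Inppl1, Tbc1d4, Cdkn1a and Pik3ca in 2, and that of Ptpn1 in 1. With the replicate block 19 of the 26 were called, with the length and GC correction 19, without Normal mice 2 and 3 together 12, with the cerebellum covariate 3 (Igfbp5, Akt2 and Tbc1d1), with the cortical projection neuron covariate 1 (Igfbp5) and with the oligodendrocyte covariate 0, where limma called 6 of all genes. With the cerebellum covariate the difference of Pik3r2 was 0.042 (adjusted p = 0.877), that of Pik3ca -0.063 (0.703) and that of Pik3c2a -0.078 (0.743), and with the oligodendrocyte covariate that of Trib2 was -0.071 (0.893).

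Across the 8 mice the genes most like each member, by Pearson's r of log2(FPKM + 0.1), were named as a description, since the diet alone sets much of such an r and all genes share the same libraries. For Igf1r they were Ksr2 (r = 0.995), Gatsl2 (0.995) and the clock gene Per3 (0.994), the last of which had 5.6 FPKM in Normal and 9.25 FPKM in HFD mice. For Insr they were Podxl (0.992), Srrm1 (0.989) and Fut9 (0.989). The highest values for the other members were 0.991 for Irs1 with Numa1, 0.967 for Irs2 with Mfhas1, 0.974 for Pik3r1 with Mgat5, 0.979 for Akt1 with Acot2, 0.945 for Foxo1 with Inhbb and 0.971 for Foxo3 with mt-Rnr1. The mean of each diet was then taken out, and all pairs of members were compared over the 8 mice. The highest r was that of Igf1r with Pik3r1 (0.927), followed by Irs1 with Foxo3 (0.760) and Irs1 with Irs2 (0.750). Akt1 and Foxo3 had the lowest value (-0.638). By the same measure Igf1r had r of 0.943 with Ksr2, 0.915 with Gatsl2 and 0.936 with Per3, so Pik3r1 was not the only gene with a value near this. Those genes were picked for their high r with Igf1r in the same mice. How common such a value was over all genes was not tested.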

How the data were processed

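The authors sequenced rRNA-depleted RNA from the cortexes of 4 Normal and 4 HFD mice. They deposited FPKM, calculated by Cuffnorm with GENCODE M17 after alignment to mm10 by STAR and rounded to 0.1; the versions are not stated in the sources at hand. Since FPKM are scaled for depth and length, the reads behind each value are not known and no counting interval was computed. Each mouse's FPKM summed to between 562431 and 639142. Groups came from the labels. Whether littermates or cages were shared is not given.

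From the deposited FPKM, log2(FPKM + 0.1) was tested with limma 3.58.1 in R 4.3.3 (two-sided, variance trend, Benjamini-Hochberg adjustment over 13982 genes with a mean of at least 1 FPKM and no 0). The procedure was tested on simulated data. Tables used Python 3.11.15, numpy 2.4.6 and pandas 2.3.3, and figures matplotlib 3.10.9. Gene positions were taken from GENCODE M21 (GRCm38), later than the authors' M17, and promoters from RefSeq on GRCm38.p6, which gave 7 of 8 members.

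The members, gene lists and tests were chosen with earlier results of these data known. Named beside the members were, per role, up to 3 called pathway genes with the largest differences, and the paralogs and partners Akt2, Foxo4, Foxo6, Pik3r2, Pik3r3, Pik3ca, Pik3cb, Igf2r and Gsk3b. The 3 genes most like it were named for Igf1r and for Insr, and the 1 gene most like it for each other member. Alternatives were added constants of 0.5 and 1 FPKM, no filter, a mean of at least 5 FPKM, quantile normalization, median-ratio rescaling, a fit without the variance trend, a block for the replicate number, marker levels as covariates and each mouse left out. A loess correction for length and GC content (span 0.5, values for 99.9% of genes), the cortical projection neuron covariate and leaving out Normal mice 2 and 3 were added after seeing the data. The second quantification by Salmon and edgeR, circRNAs, GO and KEGG analyses and protein blots were not analysed here. The results of some genes of the list are not reported here.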

Additional observations from a re-analysis of the deposited data

Results flagged for a closer look

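In each diet, the mouse farthest from the others was compared with the range of its group of 4 by Dixon's test for the named genes and ratios. Of 90 groups 5 passed, where chance gives about 1 in 20. Igf2 was at 9.4 FPKM in Normal mouse 4 against 13.0 to 13.7 in the other Normal mice. Pik3cd was at 7.7 FPKM in HFD mouse 3 against 7.0 in the other HFD mice. Tbc1d4 was at 2.0 FPKM in HFD mouse 4 against 2.1 in the other HFD mice, a step of the rounding. Cdkn1b was at 11.2 FPKM in HFD mouse 1 against 12.3 to 12.4 in the others. The ratio of Foxo3 to Foxo1 was 18.1 in HFD mouse 3 against 12.6 to 12.7 in the others.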

How the results depend on the processing

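The number of members called stayed at 2, and the number of pathway genes called within 1.5 times the 48 reported, under the other constants, filters and scalings and without the variance trend. The replicate numbers do not pair the mice (correlations of same-numbered deviations from -0.131 to 0.0176), and the fit with the replicate block called 2 members, 33 pathway genes and 3390 genes in all, with Insr at an adjusted p of 0.0481. Leaving out each mouse gave 28 to 47 pathway genes called, 10 to 22 of them lower, with the lowest counts without Normal mouse 2. With the cerebellum covariate 1 member, Igf1r, and 7 pathway genes (4 higher, 3 lower) of 392 genes in all were called. With the oligodendrocyte covariate limma called 0 members and 0 pathway genes (0 higher, 0 lower) of 6 in all. At an unadjusted p below 0.05 were 2 members and 18 of the 114 pathway genes, beside 1849 of 13982 genes in all. Of the alternatives chosen after seeing the data, the cortical projection neuron covariate gave 0 members (1 at an unadjusted p below 0.05, beside 2950 of 13982 genes) and 5 pathway genes (3 higher, 2 lower) of 324. The length and GC correction gave 1 member, Igf1r, and 17 pathway genes higher against 23 lower, where 27 and 21 were reported. Without Normal mice 2 and 3, 26 pathway genes (16 higher, 10 lower) of 2736 were called, with Irs2 (log2 0.29, adjusted p = 0.0408) in place of Insr (0.20, adjusted p = 0.0519) beside Igf1r.

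Log2 differences turned sign for these genes. The cerebellum covariate gave Tbc1d4 0.15 and Pik3r3 0.40, the oligodendrocyte covariate Pik3r3 0.055, Foxo4 0.15 and Foxo6 -0.16, and the cortical projection neuron covariate Pik3r1 -0.066, Pik3r2 -0.034, Tbc1d4 0.16 and Pik3r3 0.37. The length and GC correction gave Ptprf -0.030 and Igf2r -0.12, and leaving out Normal mice 2 and 3 gave Pik3r3 0.050. With each mouse left out Igf2r ranged from -0.023 to 0.046. The cause of these turns was not tested. FPKM carry no counts, so what depth limits cannot be stated, and the rounding limits genes near 2 FPKM such as Foxo1.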

Other observations

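Further pathway genes are named in this section after their values were seen. Some belong to families in which the members moved differently. Whether their calls held under the alternatives was not followed gene by gene. Of the 14-3-3 proteins, which hold phosphorylated FoxO factors in the cytoplasm, Ywhag rose from 204 to 240 FPKM (log2 0.24, limma adjusted p = 0.0103) and Ywhab from 120 to 135 FPKM (log2 0.16, adjusted p = 0.0237). Ywhah, the most abundant of them, fell from 346 to 308 FPKM (log2 -0.17, adjusted p = 0.0248), in the same direction as Ywhaq. Ywhae had 117 and 130 FPKM (adjusted p = 0.0733) and Ywhaz 166 and 173 FPKM (adjusted p = 0.406). Of the FoxO target genes, the coactivator Ppargc1a rose from 9.38 to 12.8 FPKM (log2 0.44, adjusted p = 0.00141), with 8.7 to 9.9 FPKM in the Normal mice and 11.9 to 13.2 FPKM in the HFD mice. The stress-response gene Sesn3 rose from 25.7 to 31.4 FPKM (log2 0.29, adjusted p = 0.00329), and its relatives Sesn1 and Sesn2 were not called (adjusted p = 0.483 and 0.677). The antioxidant enzymes catalase (Cat) and peroxiredoxin 3 (Prdx3) fell from 18.1 to 15.3 FPKM (log2 -0.24, adjusted p = 0.0157) and from 31.2 to 28 FPKM (log2 -0.15, adjusted p = 0.0234).

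The receptor-binding adaptor Sh2b1 rose from 15.1 to 18.3 FPKM (log2 0.27, limma adjusted p = 0.00432).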
